A study of Homo sapiens with 4 samples.

Results

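The pore-forming subunits of voltage-gated calcium channels were examined in A375 human melanoma cells, as the 10 genes of the CACNA1 family. All 10 were found among the 2864 genes of the table used here. They were taken by name, not by their values, though earlier results of these data were known. They fall into 4 L-type genes (CACNA1C, CACNA1D, CACNA1F, CACNA1S), 3 P/N/R-type genes (CACNA1A, CACNA1B, CACNA1E) and 3 T-type genes (CACNA1G, CACNA1H, CACNA1I). RNA-seq libraries were made from untreated parental cells (A375P), from a resistant strain raised in stepwise increasing vemurafenib and kept under the drug (A375R), from cells given 1 per mille DMSO solvent for 48 h (A375+DMSO) and from cells given 2 μM vemurafenib for 48 h (A375+VEM). Vemurafenib inhibits the BRAF kinase, which is mutated and active in A375 cells. All 4 libraries came from the same cell line, labelled wild type, grown in the same medium, and A375R is a single strain. Each condition had 1 library, so no difference between conditions has a replicate check and none was tested.

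Each pore subunit is a single long protein that folds into 4 similar domains around a pore, opens when the membrane is depolarised and lets calcium into the cell. L-type channels carry long-lasting currents and are blocked by dihydropyridine drugs, P/Q-, N- and R-type channels serve transmitter release at nerve endings, and T-type channels open briefly near the resting voltage. These channels are best known from nerve, muscle and endocrine cells, and T-type channels have also been described in melanoma lines.

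Levels are given in TPM, the authors' read count of a gene divided by its length and scaled to the whole library, so they can be compared between genes. The table holds 8.48% to 8.94% of the TPM of each library, and the reads of its genes summed to between 1891215 and 2054277. A pair of libraries was compared by the ratio of (TPM + 0.1), and a gene was called different past 1.5-fold (0.58 on the log2 scale) if its TPM reached 1 in at least 1 of the 2 libraries. Ratios and folds given without log2 are of TPM alone. Each such ratio has a 95% Clopper-Pearson interval (exact) from the read numbers of both libraries, which compares only those libraries and covers counting error only. In bulk RNA, fewer cells with a transcript and less of it per cell cannot be told apart.

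Of 13 genes listed as markers of melanoma and pigment cells, 5 are in the table and the others, among them MITF, TYR and PMEL, were not analysed here. BACE2 was between 20.9 and 47.1 TPM, BCAN between 15.4 and 34.1 and APOE between 11.3 and 26.3, while BIRC7 did not exceed 1.66 and ABCB5 0.0978. The 4 macrophage markers summed to between 0.233 and 0.641 TPM, with C1QA at 0 in each library. The 4 muscle markers summed to between 3.26 and 8.05 TPM, the 3 neuron markers to between 1.07 and 3.37 and the 3 endothelium markers to between 1.74 and 9.30. These 3 sums were highest in A375+VEM, the library with the highest pore subunit level, and their part in the results was not tested. ACE accounted for most of the endothelium sum there, at 8.81 TPM. The 4 smooth muscle and fibroblast markers summed to between 74.7 TPM in A375R and 114 in A375P, mainly from ACTA2 and BGN.

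CACNA1D was the pore subunit with the largest difference in TPM between libraries, and the one with the highest level reached. By the ratio of its highest to its lowest TPM it stood at 14.2, below CACNA1B at 16.1, whose lowest level rests on 2 reads. It encodes an L-type channel that opens at more negative voltages than the other widely expressed L-type channel and paces the sinoatrial node, endocrine cells and inner hair cells. In hg19 coordinates it lies on the plus strand of chromosome 3 from 53529076 to 53846492, a span of 317 kb, with 7827 bases counted as its length. Its reads numbered 44 in A375P and 60 in A375R, then 101 in A375+DMSO and 579 in A375+VEM, or 0.656, 0.990, 1.61 and 9.32 TPM in that order. The 48 h vemurafenib library stood far above the other 3, and its 95% counting interval of 8.57 to 10.1 TPM did not meet theirs, the highest of which reached 1.96 in A375+DMSO.

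From A375+DMSO to A375+VEM, CACNA1D was 5.77-fold higher (95% interval 4.67 to 7.20), a log2 ratio of 2.46 on (TPM + 0.1). Its log2 ratio ranked 37 from the top of the 1784 genes compared in this pair and lay above 97.9% of them. Against A375P the fold in A375+VEM was 14.2 (95% interval 10.4 to 19.8), and against A375R it was 9.41 (95% interval 7.20 to 12.5). So the level under 48 h of vemurafenib exceeded that of each of the other libraries beyond counting error.

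The 3 lower libraries also differed in CACNA1D, though by less. A375+DMSO was 2.46-fold above A375P (95% interval 1.71 to 3.59), with both of these libraries free of the drug. A375R was 1.51-fold above A375P, and the lower bound of its 95% interval, 1.01 to 2.28, lay next to 1. Against A375+DMSO the resistant strain was lower, at a ratio of 0.614 (95% interval 0.438 to 0.853). The direction of CACNA1D in A375R thus depended on which library without vemurafenib served as the control. Among protein-coding genes of the table, CACNA1D stood above 31.1% in A375P and 33.1% in A375R, and above 35.3% in A375+DMSO and 52.4% in A375+VEM.

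**Figure D1:**
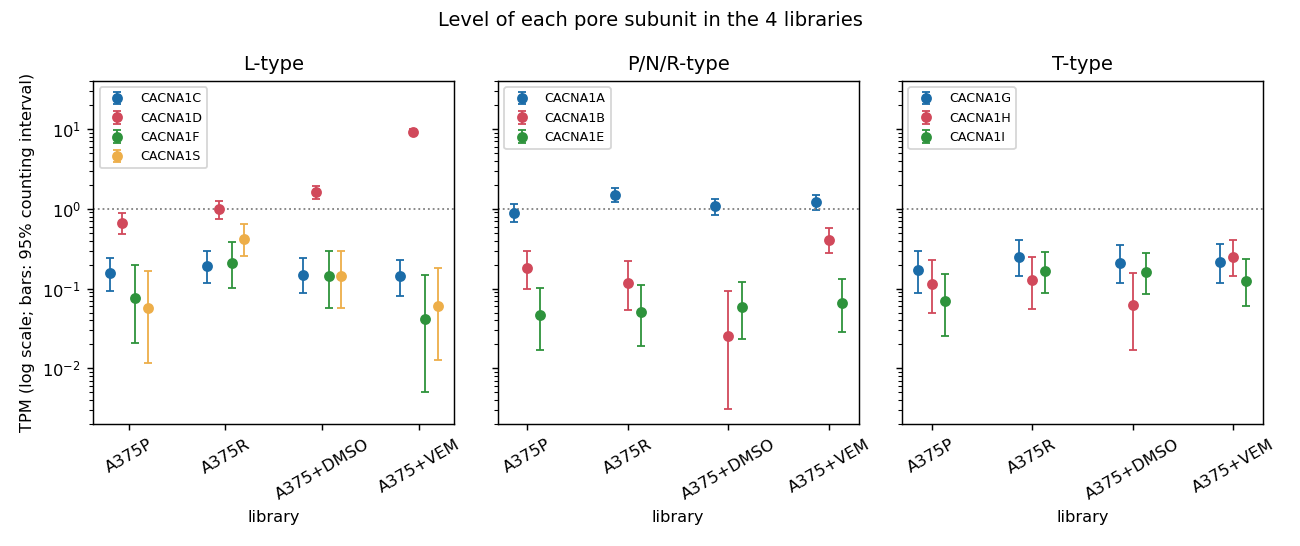
Level of each pore subunit in TPM (log axis) in the 4 libraries, by channel class, with 1 point per gene and library and bars for the exact 95% Poisson interval of its reads. CACNA1D goes from 0.656 TPM in A375P to 9.32 in A375+VEM, CACNA1A stays near the dotted line at 1 TPM, and the other 8 genes lie below it in each library.

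The other 3 L-type genes were low, and CACNA1S was the one that set A375R apart. CACNA1S (chromosome 1, 201008640 to 201081694, minus strand) encodes the voltage sensor of skeletal muscle contraction. A375R held 20 of its reads, beside 3 in A375P, 7 in A375+DMSO and 3 in A375+VEM, and its highest level was 0.419 TPM in A375R. Against A375P the ratio in A375R was 7.38 (95% interval 2.19 to 38.8), and against A375+DMSO 2.95 (95% interval 1.20 to 8.26). A375R was also above A375+VEM, whose ratio to it was 0.146 (95% interval 0.0278 to 0.493). The remaining 3 libraries could not be told apart at this depth.

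CACNA1F (chromosome X, 49061523 to 49089833, minus strand), the L-type channel of photoreceptors, had 10 reads in A375R, beside 4 in A375P, 7 in A375+DMSO and 2 in A375+VEM. Its order of libraries resembled that of CACNA1S at the top, but the ratio of A375R to A375P, 2.77, had a 95% interval from 0.798 to 12.1, and that of A375R to A375+DMSO, 1.48, one from 0.507 to 4.57. A375+VEM, with 2 reads, was below A375R at a ratio of 0.195 (95% interval 0.0208 to 0.915). CACNA1C (chromosome 12, 2162416 to 2807115, plus strand), the L-type channel of heart and smooth muscle, was nearly even, with 19 reads in A375P, 21 in A375R, 17 in the DMSO and 16 in the vemurafenib library. Its highest level, 0.191 TPM in A375R, was 1.35-fold its lowest, 0.142 TPM in A375+VEM. The interval of the ratio between these 2 libraries, 0.362 to 1.49, allows differences of either sign.

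Among the P/N/R-type genes, CACNA1A was the most abundant. It encodes the P/Q-type channel of nerve endings and cerebellar Purkinje cells and lies on the minus strand of chromosome 19 from 13317256 to 13617274. Its reads numbered 67 in A375P and 101 in A375R, then 75 in A375+DMSO and 84 in A375+VEM, or 0.894, 1.49, 1.07 and 1.21 TPM. A375R was the highest library and A375P the lowest, 1.67-fold apart (95% interval 1.21 to 2.31, log2 ratio 0.68). Ordered by level, neighbouring libraries did not differ beyond counting error. A375+DMSO stood at 1.20 times A375P (95% interval 0.851 to 1.69), A375+VEM at 1.13 times A375+DMSO (95% interval 0.816 to 1.56) and A375R at 1.23 times A375+VEM (95% interval 0.914 to 1.67). A375R was above A375+DMSO at a ratio of 1.39, with the lower bound of its 95% interval, 1.02 to 1.90, next to 1.

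CACNA1B (chromosome 9, 140772241 to 141019076, plus strand) encodes the N-type channel that triggers transmitter release and is the target of the pain drug ziconotide. Its reads numbered 15 in A375P and 9 in A375R, then 2 in A375+DMSO and 32 in A375+VEM, with the highest level at 0.412 TPM in A375+VEM and the lowest at 0.0255 TPM in A375+DMSO. From A375+DMSO to A375+VEM the ratio was 16.1, with a 95% interval from 4.11 to 139 because the control had 2 reads. Against A375P, the ratio in A375+VEM was 2.30 (95% interval 1.21 to 4.58), and against A375R it was 3.47 (95% interval 1.62 to 8.26). A375+DMSO was itself below A375P, at a ratio of 0.143 (95% interval 0.0159 to 0.614), so the size of the difference under vemurafenib depended on the control. CACNA1E (chromosome 1, 181452686 to 181775920, plus strand), the R-type channel, had 6, 6, 7 and 8 reads in A375P, A375R, A375+DMSO and A375+VEM, and at 0.0464 to 0.0668 TPM it had the lowest mean level of the 10 genes.

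The T-type genes were all low, with 4 to 16 reads in each library. CACNA1G (chromosome 17, 48638429 to 48704835, plus strand), a T-type channel of thalamic and other rhythmic neurons, had 12 reads in A375P and 16 in A375R, and 14 in each of the other 2 libraries. CACNA1I (chromosome 22, 39966758 to 40085740, plus strand), a T-type channel found mainly in the brain, had 6 reads in A375P, 13 in both A375R and A375+DMSO and 10 in A375+VEM. None of the intervals between 2 libraries left out 1 for CACNA1G and CACNA1I. CACNA1H (chromosome 16, 1203241 to 1271772, plus strand), a T-type channel of sensory neurons and the adrenal cortex, had 16 reads in A375+VEM, beside 8 in each of A375P and A375R and 4 in A375+DMSO, or 0.249 TPM beside 0.115, 0.128 and 0.0618. A375+VEM stood at 4.03 times A375+DMSO (95% interval 1.30 to 16.6) and at 2.16 times A375P (95% interval 0.872 to 5.83). So no difference from the parental library was detectable at this depth.

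To show the sequence in front of the 2 genes with the largest ratio under acute vemurafenib, the 250 bases upstream of the RefSeq gene start are given below, 5′ to 3′ on the strand of the gene, from the RefSeq promoter table on GRCh38.p14, a build other than the hg19 of the authors' table. The window of CACNA1D is chr3:53494361-53494610 on the plus strand and that of CACNA1B is chr9:137877532-137877781 on the plus strand. Capitals mark an E-box, spelled CACGTG, found in the window of CACNA1B.
CACNA1D: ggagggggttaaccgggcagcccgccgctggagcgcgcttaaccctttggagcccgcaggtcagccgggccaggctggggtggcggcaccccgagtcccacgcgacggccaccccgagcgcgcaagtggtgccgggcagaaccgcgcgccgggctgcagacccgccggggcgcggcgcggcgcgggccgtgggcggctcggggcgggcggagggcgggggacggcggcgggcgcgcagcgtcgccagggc
CACNA1B: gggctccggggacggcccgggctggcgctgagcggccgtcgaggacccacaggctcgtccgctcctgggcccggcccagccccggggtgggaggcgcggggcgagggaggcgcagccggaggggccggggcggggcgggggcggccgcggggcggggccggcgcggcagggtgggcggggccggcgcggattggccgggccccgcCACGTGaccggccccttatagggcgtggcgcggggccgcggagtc

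The CACNA1D window had a GC content of 81.6% and 41 CpG sites, more of both than in 98.0% and 98.3% of the 35116 promoters of the table, whose medians were 58.0% and 11.0. The CACNA1B window had a GC content of 85.2% and 39 CpG sites. Of the 8 pore subunits with an entry (CACNA1G and CACNA1H were not matched), CACNA1C was as rich, at 85.6% and 51, and CACNA1F, at 45.2% and 6, had the lowest GC content. A link between these contents and the levels of the genes was not tested. Both strands of each window were searched for the E-box letters above, for the AP-1 site spelled TGANTCA, for the cAMP response element spelled TGACGTCA, for the FOXO site spelled GTAAACA and for a promoter box spelled TATAAA. The window of CACNA1B held the E-box from 45 bases upstream of its start and CACNA1I from 49, and 6.34% of all promoters held it. None of these motifs occurred in the other 6 windows, which says nothing on the binding of these factors. The other motifs, in the order given, were in 6.57%, 1.65%, 2.98% and 10.7% of all promoters. No 2 of these motifs overlapped, since each window with a match held only the E-box.

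Summed by class, the L-type genes held most of the pore subunit RNA under acute vemurafenib, and nearly all of that was CACNA1D. The 4 L-type genes summed to 9.56 TPM in A375+VEM, beside 0.946 in A375P, 1.81 in A375R and 2.05 in A375+DMSO. Without CACNA1D the sums were 0.245 TPM in A375+VEM beside 0.290, 0.822 and 0.435 in A375P, A375R and A375+DMSO. On summed reads of these 3 genes, A375+VEM stood at 0.872 of A375P (counting interval 0.466 to 1.61). Against A375+DMSO it stood at 0.682 (counting interval 0.373 to 1.23). So the other 3 L-type genes together had their lowest sum in A375+VEM, but not beyond counting error against A375P or A375+DMSO. The 3 P/N/R-type genes summed to 1.12, 1.66, 1.16 and 1.69 TPM and the 3 T-type genes to 0.355, 0.546, 0.436 and 0.588 TPM in A375P, A375R, A375+DMSO and A375+VEM. CACNA1D made up 27.1% of the summed pore subunit TPM in A375P and 24.6% in A375R, but 44.3% in A375+DMSO and 78.7% in A375+VEM. In A375P and A375R the leading pore subunit was CACNA1A, at 1.36 and 1.51 times the TPM of CACNA1D, and in the other 2 libraries it was CACNA1D, which in A375+VEM reached 7.70 times the TPM of CACNA1A.

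**Figure D2:**
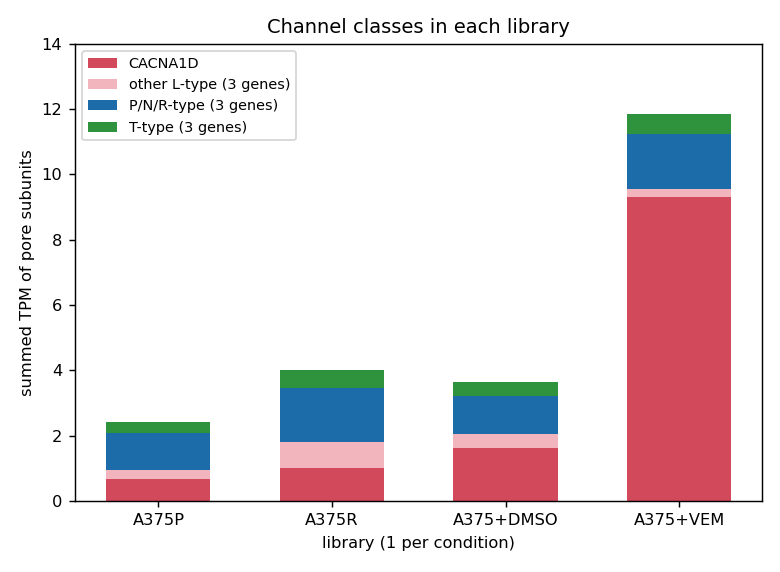
Summed TPM of the pore subunits in each library (1 per condition, linear axis from 0), with CACNA1D drawn apart from the other 3 L-type genes and from the P/N/R- and T-type genes. The whole bar stands at 2.42 TPM in A375P, at 4.02 in A375R, at 3.64 in A375+DMSO and at 11.8 in A375+VEM, and CACNA1D makes up most of the last.

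The ratio of the L-type sum between A375+VEM and A375+DMSO was 4.67. On the summed reads the ratio was 4.58 (95% interval 3.79 to 5.57). For the P/N/R-type genes the ratio of summed reads in this pair was 1.49 (95% interval 1.12 to 1.99). Without CACNA1A, whose ratio was 1.13, the TPM sum of CACNA1B and CACNA1E differed 5.72-fold. That fold was given no interval, and CACNA1B in it rests on 32 reads against 2. For the T-type genes the ratio of summed reads was 1.30 (95% interval 0.793 to 2.15). Between A375R and A375P the ratio of summed reads was 1.76 for the L-type (95% interval 1.29 to 2.40), 1.46 for the P/N/R-type (95% interval 1.10 to 1.95) and 1.58 for the T-type genes (95% interval 0.929 to 2.71). Against A375+DMSO the L-type ratio in A375R was 0.869 (95% interval 0.669 to 1.13), so no L-type rise was seen with that control. The P/N/R-type ratio there was 1.43 (95% interval 1.07 to 1.91) and the T-type ratio 1.23 (95% interval 0.744 to 2.05). Over the 9 genes other than CACNA1D, the summed level was 3.03 TPM in A375R, beside 2.52 in A375+VEM, 1.76 in A375P and 2.03 in A375+DMSO. By these sums the resistant strain was the highest library once CACNA1D was set aside. On summed reads it exceeded A375P and A375+DMSO beyond counting error. Its ratio to A375+VEM was given no interval, so the order of A375R and A375+VEM may lie within counting error.

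By the rule for calling a difference, few pore subunits reached the level of 1 TPM. Between A375R and A375P, CACNA1A was the 1 gene compared, and it was called, beside 44.3% of the 1689 genes compared. Its log2 ratio of 0.68 lay above 77.0% of them. Scaling the pair to a median ratio of 1, a shift of 0.10 on the log2 scale, took CACNA1A just under the threshold, and a pseudocount of 1, a 2-fold threshold or a minimum of 5 TPM also ended its call. CACNA1D was not compared in this pair, since its higher level, 0.990 TPM, fell just short of 1.

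Between A375+VEM and A375+DMSO, CACNA1D and CACNA1A were compared and CACNA1D was called, beside 46.2% of all 1784 genes. The median log2 ratio of those genes was 0.11, against 2.46 for CACNA1D and 0.16 for CACNA1A. CACNA1D kept its call under each alternative tried. Between A375+DMSO and A375P the same 2 genes were compared and CACNA1D was called, beside 45.7% of 1720 genes. Between A375R and A375+DMSO, CACNA1D was called as lower, at a log2 ratio of -0.65, beside 20.5% of 1702 genes, and a pseudocount of 1, a 2-fold threshold or a minimum of 5 TPM ended that call. A share of called genes close to these backgrounds is no result about the family, and the calls of CACNA1D share control libraries with one another.

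**Figure D3:**
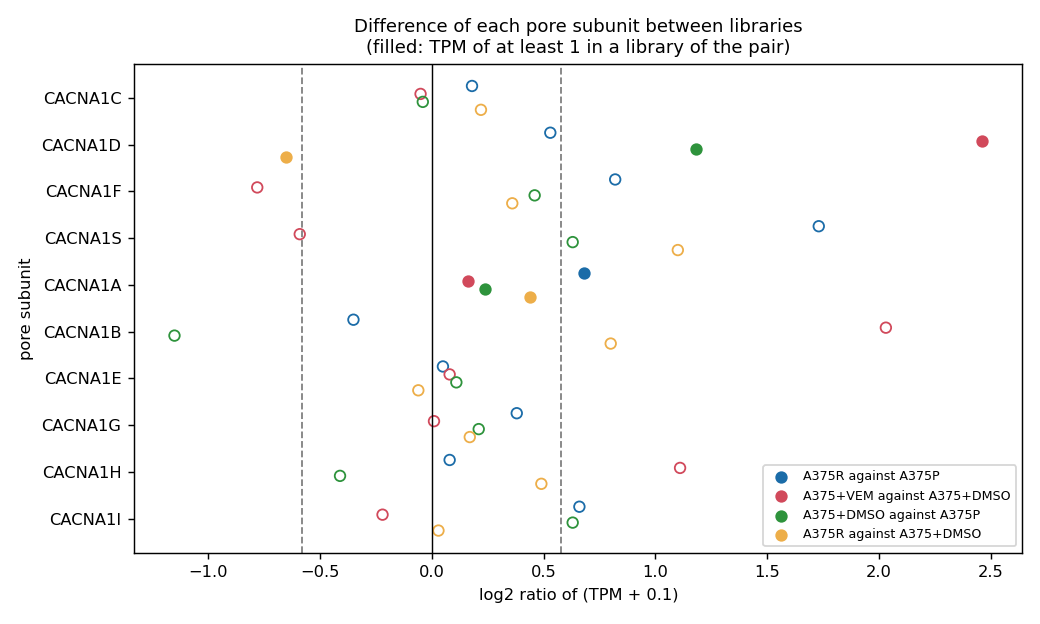
Log2 ratio of (TPM + 0.1) of each pore subunit in the 4 pairs of libraries, with dashed lines at the 1.5-fold threshold, filled points for pairs in which the TPM reached 1 and open points for the rest. CACNA1D in A375+VEM against A375+DMSO stands farthest to the right at 2.46, and CACNA1B (2.03) and CACNA1S (1.73) are the next points but rest on few reads.

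Without regard to level, 3 of the 10 pore subunits had a counting interval that left out 1 between A375R and A375P (CACNA1A, CACNA1D and CACNA1S, all higher in A375R), beside 52.9% of the 2531 genes with a read in either library. Between A375+VEM and A375+DMSO there were also 3 (CACNA1B, CACNA1D and CACNA1H, all higher in A375+VEM), beside 55.1% of 2543 genes. Between A375+DMSO and A375P there were 2, CACNA1D higher and CACNA1B lower, beside 55.1% of 2530 genes. Between A375R and A375+DMSO there were 3, CACNA1A and CACNA1S higher in A375R and CACNA1D lower, beside 40.9% of 2511 genes. These 40 intervals were not adjusted for their number, and genes with more reads than the pore subunits have narrower intervals.

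The log2 ratio was above 0 for 9 of 10 pore subunits in A375R against A375P, the exception being CACNA1B, with a median of 0.45. CACNA1E, with 6 reads in each of these libraries, and CACNA1H, with 8 in each, had log2 ratios of 0.05 and 0.08. Scaling to a median ratio of 1 took them to -0.05 and -0.02. As given above, 3 of the 10 had an interval that left out 1. Of all genes with a read in this pair, 55.6% were above 0, with a median of 0.08. In A375+VEM against A375+DMSO, 6 of 10 were above 0 with a median of 0.04, beside 59.3% and 0.12 for all genes. In A375+DMSO against A375P, 7 of 10 were above 0 with a median of 0.22, beside 54.7% and 0.07. In A375R against A375+DMSO, 8 of 10 were above 0 with a median of 0.29, beside 51.1% and 0.01. Among genes with a read that stayed below 1 TPM, 54.3%, 65.1%, 55.7% and 49.7% were above 0 in these pairs, in the same order. Their medians were 0.06, 0.23, 0.06 and -0.06.

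**Figure D4:**
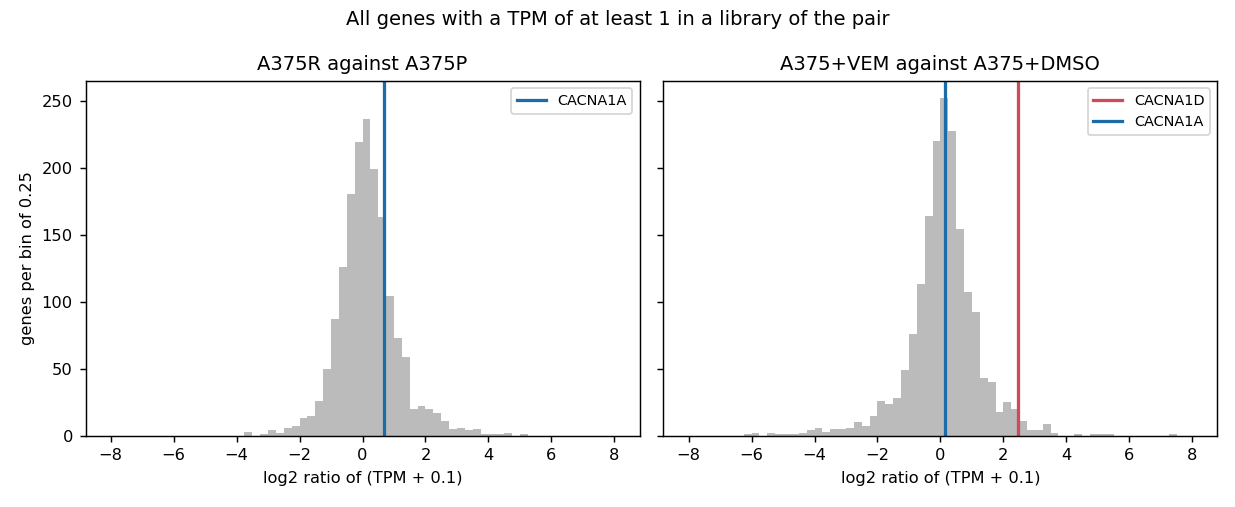
Number of genes (y) per bin of 0.25 in the log2 ratio of (TPM + 0.1) (x) for A375R against A375P (left) and A375+VEM against A375+DMSO (right), with coloured lines at the pore subunits compared in each pair. CACNA1A lies within the bulk of the genes in both panels, at 0.68 and 0.16, and CACNA1D lies in the upper tail on the right, at 2.46.

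Pore subunits of the L- and P/N/R-types work with auxiliary subunits. A β subunit binds the pore subunit from inside the cell and brings it to the membrane, an α2δ subunit binds it from outside, and some γ subunits join it, while other γ genes encode partners of glutamate receptors. All 16 auxiliary genes are in the table. In A375R against A375P, 3 of 8 compared were called higher and 1 lower, and in A375+VEM against A375+DMSO, 2 of 7 were called higher and 1 lower. Of all genes compared in these pairs, 44.3% and 46.2% were called in either direction. The median log2 ratios of the auxiliary genes compared were 0.46 and 0.43, beside 0.10 and 0.11 for all genes. In A375+DMSO against A375P, 3 of 8 were called higher and 1 lower, beside 45.7% of all genes called, and in A375R against A375+DMSO none of 7 was called, beside 20.5%. The β subunit gene CACNB3 was the highest auxiliary gene in each library but A375P, where CACNG8 was at 13.5 TPM. CACNB3 had 131 reads in A375P against 853 in A375R, next to 829 in A375+DMSO and 1232 for A375+VEM, or 4.73, 34.1, 32.0 and 48.0 TPM. So A375P had the least CACNB3 as it had the least CACNA1D, with A375R 7.21-fold above it (95% interval 5.99 to 8.73), while the step from A375+DMSO to A375+VEM, at a log2 ratio of 0.58 (95% interval of the ratio 1.37 to 1.64), stopped just short of the threshold.

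CACNB1, the β subunit gene of skeletal muscle and other tissues, went the other way from CACNA1D under acute vemurafenib, from 7.88 TPM in A375+DMSO to 4.41 in A375+VEM, a ratio of 0.560 (95% interval 0.453 to 0.689). The α2δ gene CACNA2D2 went from 1.00 to 2.90 TPM in that pair, 2.89-fold (95% interval 2.06 to 4.12), and the γ gene CACNG7 from 1.92 to 8.11 TPM, 4.22-fold (95% interval 2.92 to 6.26). In A375R against A375P the γ genes CACNG6 and CACNG8 were 2.41-fold (95% interval 1.77 to 3.31) and 1.62-fold (95% interval 1.49 to 1.75) higher. The α2δ gene CACNA2D1 stood in A375R at 0.623 of its A375P level (95% interval 0.542 to 0.715). Against A375+DMSO, A375R stood at 0.758 for CACNG6 (95% interval 0.602 to 0.952) and at 1.43 for CACNG8 (95% interval 1.32 to 1.55). For CACNA2D1 that ratio was 1.23 (95% interval 1.05 to 1.46). The direction of CACNG6 and CACNA2D1 in A375R thus depended on the control. CACNA2D3, which lies 310 kb from CACNA1D on chromosome 3, was below 1 TPM in each library, at 0.715 in A375+DMSO and 0.994 in A375+VEM.

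Of 9 genes for pumps that remove calcium from the cytoplasm, 6 were compared in A375R against A375P, with 1 called higher and 1 lower. In A375+VEM against A375+DMSO, 7 were compared, with 3 called higher and 2 lower. Beside them stand 44.3% and 46.2% of all genes called. The median log2 ratios of the pumps were -0.13 and 0.41, beside 0.10 and 0.11 for all genes. In A375+DMSO against A375P, 2 of 7 were called higher and 1 lower, beside 45.7% of all genes called, and in A375R against A375+DMSO 2 of 7 were called higher, beside 20.5%. ATP2B4, a pump of the plasma membrane, had 17.5 TPM in A375P against 99.2 in A375R, and 56.8 in A375+DMSO against 133 in A375+VEM. It was called in both pairs: A375P stood at 0.177 of A375R (95% interval 0.167 to 0.187), and A375+VEM at 2.33 times A375+DMSO (95% interval 2.25 to 2.42). ATP2A1, the calcium pump of fast skeletal muscle, was lower in A375R than in A375P, at a ratio of 0.630 (95% interval 0.398 to 0.982), and under acute vemurafenib stood at 3.51 times its DMSO level (95% interval 2.54 to 4.93). Against A375+DMSO its ratio in A375R was 0.696 (95% interval 0.433 to 1.10). Also called in the acute pair were ATP2A2, the widespread pump of the endoplasmic reticulum, at 1.55-fold (95% interval 1.51 to 1.60), ATP2B1 at a ratio of 0.604 (95% interval 0.547 to 0.667) and ATP2C2 at 0.597 (95% interval 0.382 to 0.923).

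Of 15 genes for proteins that bind or regulate these channels, 8 were compared in each pair, with 3 called higher and 2 lower in A375R against A375P, and 1 called higher and 3 lower in A375+VEM against A375+DMSO. All genes were called at 44.3% and 46.2% in these pairs. The median log2 ratios of the partner genes were 0.42 and -0.29, beside 0.10 and 0.11 for all genes. In A375+DMSO against A375P, 3 of 8 were called higher and 1 lower (45.7% of all genes called), and in A375R against A375+DMSO 1 of 7 was called higher and 2 lower (20.5% of all genes called). BIN1, which shapes the membrane tubules that hold L-type channels in muscle, had 28 reads in the parental and 133 in the resistant library, a 5.26-fold difference (95% interval 3.48 to 8.21). The DMSO library held 130 BIN1 reads, and the ratio of A375R to it was 1.06 (95% interval 0.824 to 1.36). ADRB1, a receptor whose signal raises L-type current in the heart, stood in A375R at 3.08 times its A375P level (95% interval 1.39 to 7.49), and the scaffold gene AKAP9 was 1.59-fold higher (95% interval 1.45 to 1.75). Against A375+DMSO, A375R stood at 0.646 for ADRB1 (95% interval 0.375 to 1.09) and at 0.681 for AKAP9 (95% interval 0.631 to 0.736). BSN, an organiser of the presynaptic zone, was called lower in the resistant strain than in A375P (ratio 0.377, 95% interval 0.296 to 0.477), as was CABP7 at 0.540 (95% interval 0.300 to 0.943). Against A375+DMSO their ratios in A375R were 0.793 (95% interval 0.602 to 1.04) and 0.530 (95% interval 0.293 to 0.931). Under acute vemurafenib BSN was the gene called higher, 3.13-fold (95% interval 2.55 to 3.86). BSN and ATP2A1 are also among the neuron and muscle markers above. ADRB1 was below its DMSO level, at a ratio of 0.176 (95% interval 0.0666 to 0.398), and CACHD1, which resembles an α2δ subunit, was at 0.578 (95% interval 0.482 to 0.692).

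The genes whose pattern over the 4 libraries was most like that of the leading member of each class were found by the distance between centred profiles of log2(TPM + 0.1), among the 1817 genes that reached 1 TPM in any library. For CACNA1D these were C21orf62-AS1 at a distance of 0.449, ARSE at 0.470 and AKAP6 at 0.492. AKAP6, an anchor of protein kinase A, had 755 reads in A375+VEM, beside 67 in each of A375P and A375R and 93 in A375+DMSO, and ARSE had 408 beside 54, 56 and 95. For CACNA1A they were ADPRM at 0.0960, ASPH at 0.121 and BMS1P17 at 0.131, and for CACNA1G they were APOL2 at 0.0666, BAZ2A at 0.0850 and ATP11B at 0.102. With 4 libraries such a distance is a description, and nearly even genes have many close neighbours.

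The table also lists 6 lncRNAs named for pore subunits, 5 of CACNA1C and 1 of CACNA1G. Of these, 3 had no read in any library, and the most in 1 library was 4, for CACNA1C-AS2 in A375+VEM. CACNA1G-AS1 had 3 reads in A375+VEM and none in the others. The sources used here do not state whether reads were counted by strand, so these reads cannot be told apart from those of CACNA1C and CACNA1G where they overlap. No row of the table overlapped the span of any of the other 8 pore subunits, CACNA1D among them. Genes outside the table, which is part of each library, were not searched.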

How the data were processed

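RNA-seq was done on 4 libraries of A375 cells, 1 per condition, assigned by the sample labels. The authors deposited whole-number read counts and TPM per gene. Their TPM divides the reads of a gene by its length and scales the result to the whole library. The submitters' processing notes name hg19, HISAT2, TopHat2, Bowtie2 and HISAT, with no roles. The counting program is not given in the sources used here. The table used here holds 2864 genes with values and 1 incomplete row, which was left out. TPM sums show that it is part of each library, so library depth is unknown.

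Library pairs were set side by side as (TPM + 0.1) ratios, for genes that reached 1 TPM in either library, with 1.5-fold as the threshold. No test was run. Intervals were exact (Clopper-Pearson for ratios, Poisson for levels), from PCR reads without molecular identifiers, so they cover counting error only. The genes named were all members, listed genes called in A375R against A375P or A375+VEM against A375+DMSO (at most 6 a list, by size of log2 ratio), and the 3 genes nearest in pattern to each class's leading member. The values of 1 listed gene are not reported here. Members and lists were chosen with earlier results of these data known. The ratio step was tested on simulated data with counting error only. Changes were planted in genes at higher levels than most pore subunits reached. That check therefore covers neither the low pore subunits nor variation between libraries. Promoters came from the RefSeq table on GRCh38.p14. The software was scipy 1.17.1, numpy 2.4.6 and pandas 2.3.3 under Python 3.11.15, with matplotlib 3.10.9 for plots.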

Additional observations from a re-analysis of the deposited data

How the results depend on the processing

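The call of CACNA1D in A375+VEM against A375+DMSO held under all 6 alternatives. Without the filter on low values the pore subunits past 1.5-fold numbered 5 in A375+VEM against A375+DMSO, 4 in A375R against A375P, 4 in A375+DMSO against A375P and 3 in A375R against A375+DMSO, instead of 1 in each, since all 10 were then compared. In A375R against A375P there were 0 with a pseudocount of 1, a TPM of at least 5, a threshold of 2-fold or scaling to a median ratio of 1. In A375R against A375+DMSO there were 0 with a pseudocount of 1, a TPM of at least 5 or 2-fold, and in A375+DMSO against A375P 0 at a TPM of at least 5. Without CACNA1D the ratio of the L-type sum was 0.562 in A375+VEM against A375+DMSO, 2.84 in A375R against A375P and 1.89 in A375R against A375+DMSO. Without CACNA1A the ratio of the P/N/R-type sum was 5.72 in A375+VEM against A375+DMSO, 0.755 in A375R against A375P, 0.371 in A375+DMSO against A375P and 2.04 in A375R against A375+DMSO. The cause of these changes was not tested beyond the genes left out. Over all genes, 748, 825, 786 and 349 were called in A375R and A375P, A375+VEM and A375+DMSO, A375+DMSO and A375P, and A375R and A375+DMSO, against 1237, 1282, 1266 and 818 without the filter. At 2-fold the share of genes called was 22.2%, 26.4%, 26.0% and 8.64%, beside 44.3%, 46.2%, 45.7% and 20.5% at 1.5-fold. In the last pair 207 were called at a TPM of at least 5. Of 120 log2 ratios of single genes under other pseudocounts and scaling, 113 stayed within their counting interval. The 7 that left it include CACNA1D with a pseudocount of 1. It went from 2.46 to 1.98 in A375+VEM against A375+DMSO and from 1.18 to 0.66 in A375+DMSO against A375P. Among called ratios 0 turned, but a pseudocount cannot change a sign, so only the scaling could have turned one. No paired analysis was possible because each condition has 1 library, and none could be left out. Depth limits the 8 genes below 1 TPM, which had at most 32 reads in a library.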
